A study of Mus musculus with 3 samples.

Results

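Caveolae are cup-shaped pits of the plasma membrane, and 7 genes that encode their coat, neck and membrane-bending proteins were followed here across matrix stiffness. They are the caveolins Cav1 and Cav2, the cavins Cavin1, Cavin2 and Cavin3, the neck ATPase Ehd2 and the F-BAR protein Pacsin2. The 7 were taken by name from a table of 56833 genes, and all 7 were present, each with a mean over the libraries above 50 normalized counts. Gene expression was measured by bulk RNA sequencing of stranded mRNA libraries from mouse ankle synovium. All cells came from mice of the genotype Efhd1CreER; Ai9, in which a tamoxifen-responsive Cre recombinase driven by Efhd1 switches on the red reporter tdTomato. The cells were sorted for tdTomato, are labelled telocytes (an interstitial cell type) and were kept for 24 h on collagen-coated plates. The groups were a soft plate of 0.2 kPa, an intermediate plate of 8 kPa and a stiff plate of 64 kPa, with 1 library each. No difference below therefore has a replicate check or a p-value, and a difference between cultures cannot be told apart from one between stiffness levels.

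Caveolin-1 and cavin-1 are the 2 proteins without which most cells form no caveolae. Caveolin-1 inserts into the inner leaflet and oligomerizes, cavin-1 joins the oligomers from the cytosol and completes the coat, EHD2 assembles around the neck and holds the pit at the surface, and PACSIN2 bends the membrane. Caveolae flatten when membrane tension increases, which releases cavins and gives the cell spare membrane, and they are abundant in adipocytes, endothelium, muscle and fibroblasts.

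Cavin2 was the member whose transcript stood apart. It was 2.32-fold higher in the stiff than in the soft library, and Cavin1 was 1.36-fold higher. The other 5 members, among them Cav1, the structural core, had log2 ratios within 0.1 of 0, beside 28.7% of all genes tested. Ratios in these libraries follow transcript length and GC content, and once that trend was subtracted only Cavin3 and Pacsin2 lay within 0.1. The log2 ratio of Cavin1 was then 0.24, no higher than the 0.25 of Cav2, while Cavin2 was at 1.32. Below, 3 values in a row are those of the soft, the intermediate and the stiff library, in that order.

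The bases in front of the transcription start are shown for Cavin2, the member with the highest ratio, and for Pacsin2, a level member of similar count. Each line gives 250 bases that end just before a start listed by RefSeq, 5′ to 3′ on the strand of the gene. The last 19 bases of the Cavin2 line and the last 12 of the Pacsin2 line lie in exons of the same gene in GENCODE. They were read from RefSeq windows of GRCm38.p6 and placed on GRCm39 by an exact match, Cavin2 at chr1:51328035-51328284 on the plus strand and Pacsin2 at chr15:83348808-83349057 on the minus strand. Capitals mark matches to 4 motifs searched on both strands, chosen after the expression values were seen: CATTCC (the MCAT element read by TEAD factors), the CArG box read by SRF, GGGCGG (the GC box) and TATAAA (the TATA box).
Cavin2: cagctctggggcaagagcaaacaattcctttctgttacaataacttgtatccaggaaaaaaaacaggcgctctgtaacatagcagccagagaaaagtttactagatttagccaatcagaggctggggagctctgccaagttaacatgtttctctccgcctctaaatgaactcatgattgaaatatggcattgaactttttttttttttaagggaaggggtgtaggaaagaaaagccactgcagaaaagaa
Pacsin2: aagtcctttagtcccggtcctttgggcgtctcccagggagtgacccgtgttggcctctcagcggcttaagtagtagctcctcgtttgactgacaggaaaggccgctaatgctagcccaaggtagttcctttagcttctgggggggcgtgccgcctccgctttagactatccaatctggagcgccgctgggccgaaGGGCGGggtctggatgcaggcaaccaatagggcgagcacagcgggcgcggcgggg

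The Cavin2 stretch held none of the 4 motifs, and 40.4% of its bases were G or C. The Pacsin2 stretch was 62% G or C and held 1 match, the GC box in capitals, 55 to 50 bases before the start. Of 32851 RefSeq windows of this length, 12.6% held an MCAT match, 1.47% a CArG box, 32.7% a GC box and 12.4% a TATA box, and the median share of G or C was 52.4%. Windows were listed for 6 of the 7 members, 10 in all, and not for Cavin3. Starts further downstream in Pacsin2 gave windows with 46.4% and 50.8% G or C and no match. A start further downstream in Cav1 gave a window with 60.8% G or C and no match. The first windows of Cavin1, Cav1, Cav2 and Ehd2 are not printed, because 250, 194, 158 and 169 of their bases lie in exons of the same gene in GENCODE. The first Cavin1 window held an MCAT match and a GC box, and the first Cav1 window a GC box and a TATA box. Those of Cav2 and Ehd2 held a GC box each, and no match overlapped another. A match is a run of letters, and nothing here measured factor binding.

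Depth was similar, at 25487064, 28081600 and 26474862 reads, recovered from the deposited normalized counts. The defining gene Efhd1 stood at 10.3, 4.71 and 3.08 normalized counts, of which the last is the level of 3 reads, while tdTomato stood at 818, 1193 and 2668. Of the other telocyte markers Pdgfra was at 5118 or more in every library, and Cd34, Foxl1 and Kit were between 38.7 and 318. All 7 fibroblast markers passed the mean of 50.

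Cavin2 encodes a cavin that binds phosphatidylserine and helps to curve the membrane. Its normalized counts were 1240.5, 1203 and 2882, from 1210, 1276 and 2810 reads. The stiff library alone was high, and the soft and intermediate libraries lay within counting error of each other. The log2 ratio, computed on normalized counts plus 1, was 1.22 for stiff against soft, with a 95% counting interval from 1.12 to 1.31. Here the exact Clopper-Pearson method gave the intervals of ratios and the exact Poisson method those of levels, and both cover counting error only. For stiff against intermediate the log2 ratio was 1.26 (interval 1.16 to 1.36), and for intermediate against soft it was -0.04 (interval -0.16 to 0.07). Of the 11873 genes that reached a mean of 50 normalized counts, 174 had a higher ratio for stiff against soft and 40 had a higher ratio for stiff against intermediate. The gene spans bases 51328266 to 51345710 of chromosome 1 (plus strand, GRCm39), and its canonical transcript has 2 exons (ENSMUSG00000045954.9).

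Cavin1 encodes the cavin that every caveola coat needs. Its normalized counts were 13067, 14489 and 17815, so each library was higher than the softer one. The log2 ratio was 0.45 for stiff against soft (interval 0.41 to 0.48), 0.15 for intermediate against soft (interval 0.12 to 0.18) and 0.30 for stiff against intermediate (interval 0.27 to 0.33). None of these reached the threshold of 1 used here for a change. With the length and GC trend taken out, the log2 ratio of Cavin1 for stiff against soft was 0.24 and that for intermediate against soft was 0.05. The same subtraction left Cavin2 at 1.32 for stiff against soft. Cavin1 spans bases 100847559 to 100861713 of chromosome 11 (minus strand) and has 2 exons (ENSMUSG00000004044.11).

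Cavin3 encodes the cavin that assembles with cavin-1 and was first described as a binding partner of protein kinase C delta. It had 1787, 1736 and 1891 normalized counts. Its log2 ratio was 0.08 for stiff against soft (interval -0.01 to 0.18). It was 0.12 for stiff against intermediate (interval 0.03 to 0.22), small but outside counting error, and kept its sign there under each alternative tried. The cavins did not move as a block: the log2 ratios of stiff against soft were 1.22, 0.45 and 0.08 for Cavin2, Cavin1 and Cavin3. Cavin3 spans bases 105128391 to 105131507 of chromosome 7 (minus strand, 2 exons, ENSMUSG00000037060.5).

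**Figure D1:**
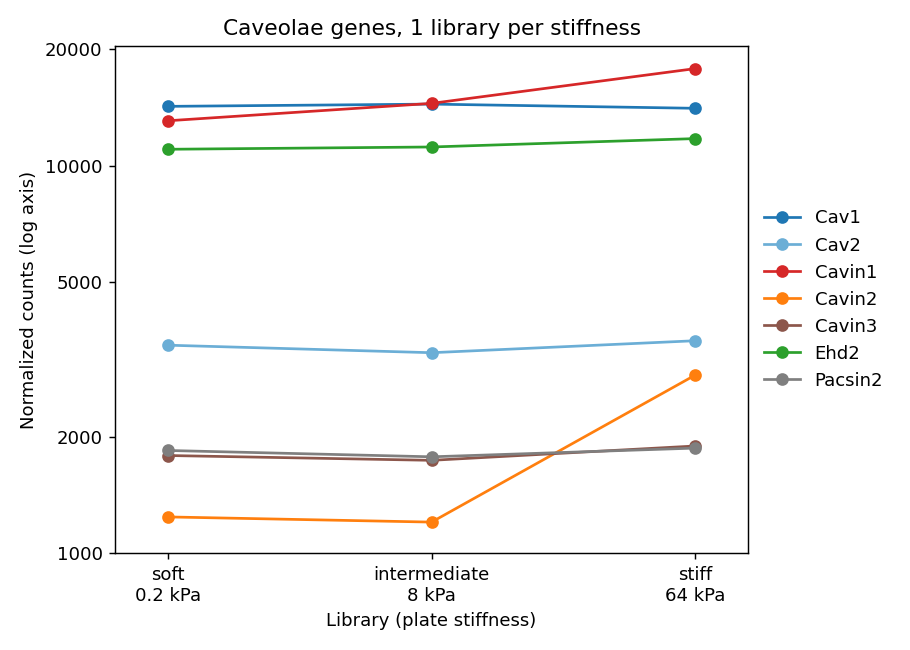
Normalized counts (log axis) of the 7 caveolae genes in the soft, intermediate and stiff library, with 1 point per library and lines joining the points of a gene; heights compare libraries within a gene, not genes with each other. Cavin2 is at 1240.5, 1203 and 2882, Cavin1 goes from 13067 to 17815, and the other genes run nearly flat.

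Cav1 encodes caveolin-1, the scaffold of the pit. It had 14235, 14427 and 14072 normalized counts. The log2 ratio was -0.02 for stiff against soft, with an interval from -0.05 to 0.02. It was 0.02 for intermediate against soft. For stiff against intermediate it was -0.04 (interval -0.07 to -0.0026), small but outside counting error. Once the length and GC trend was subtracted the sign turned for stiff against soft, at 0.10, and for stiff against intermediate, at 0.04. Cav1 spans bases 17306140 to 17341451 of chromosome 6 (plus strand) and has 3 exons (ENSMUSG00000007655.18).

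Cav2 encodes caveolin-2, which needs caveolin-1 to reach the cell surface. It lies beside Cav1 on chromosome 6, at 17281026 to 17289877 on the same strand, 16263 bases away (3 exons, ENSMUSG00000000058.8). Its normalized counts were 3443, 3292 and 3535, lowest in the intermediate library. The log2 ratio was 0.04 for stiff against soft (interval -0.03 to 0.11). It was -0.02 with scaling by library totals and 0.25 with the length and GC trend subtracted, so no direction can be given for Cav2 between stiff and soft. Between stiff and intermediate it was 0.10 (interval 0.03 to 0.17) and kept its sign under each alternative tried, and between intermediate and soft it was -0.06 and stayed below 0.

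Ehd2 encodes the ATPase that rings the neck and restrains the pit from leaving the membrane. It had 11030.0, 11181 and 11752 normalized counts. The log2 ratio was 0.09 for stiff against soft (interval 0.05 to 0.13), small but outside counting error. It reversed to -0.16 with the length and GC trend subtracted, so no direction can be given for Ehd2 between stiff and soft. Ehd2 spans bases 15680874 to 15701629 of chromosome 7 (minus strand, 6 exons, ENSMUSG00000074364.8).

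Pacsin2 encodes the F-BAR protein that shapes the membrane at the pit. It had 1841, 1773 and 1867 normalized counts, and a log2 ratio of 0.02 for stiff against soft (interval -0.07 to 0.12). The sign turned under scaling by library totals, under scaling by upper quartiles and with the trend subtracted, and all of these values were between -0.04 and 0.02. Pacsin2 spans bases 83258424 to 83348819 of chromosome 15 (minus strand, 11 exons, ENSMUSG00000016664.19).

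**Figure D2:**
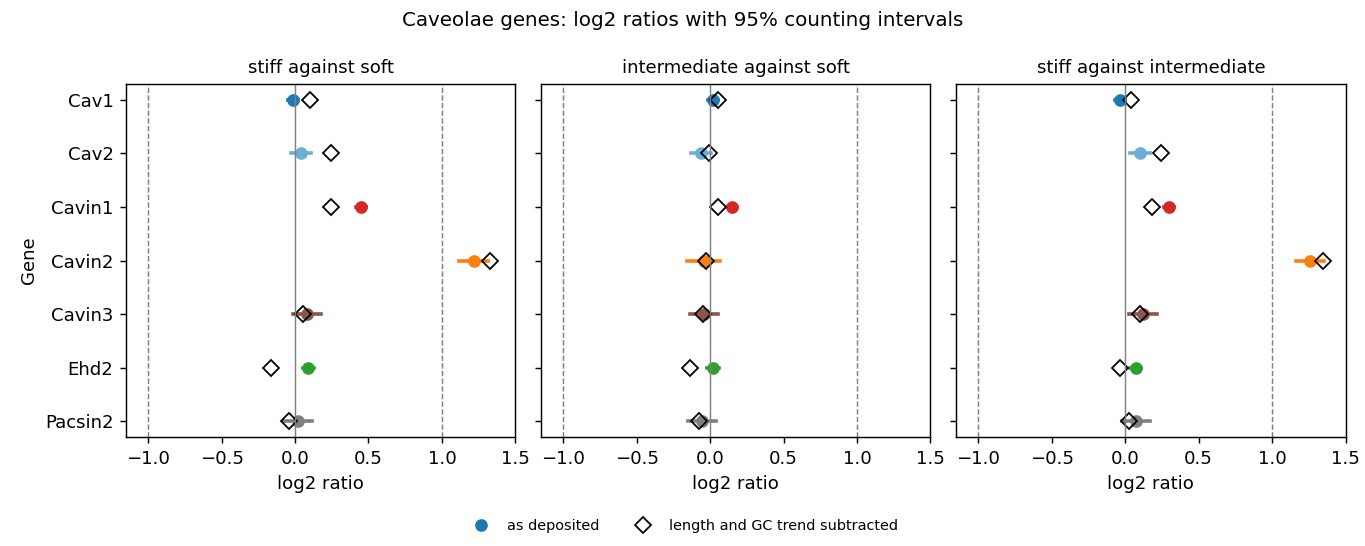
Log2 ratios of the 7 caveolae genes in the 3 comparisons, as deposited (filled points, with 95% counting intervals as bars) and with the length and GC trend subtracted (open diamonds, no interval), with dashed lines at log2 ratios of -1 and 1. Cavin2 alone passes the line, at 1.22 against soft and 1.26 against intermediate, and for stiff against soft the diamonds of Cavin3 and Pacsin2 alone lie within their bars.

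Counted by the threshold, a log2 ratio of at least 1 in size, 1 of the 7 members was higher in the stiff than in the soft library and 0 were lower. Over all 11873 genes tested, 3.22% were higher and 0.387% lower by that threshold. At a log2 ratio of at least 0.5 the member count was still 1 higher and 0 lower, against 11.8% higher and 3.77% lower over all genes. Cavin2 was the single member in both counts. The median log2 ratio of the members was 0.08, beside 0.0049 for all genes tested.

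The level members can be counted too, with a band of 0.1 around 0 that was chosen after the values were seen. For stiff against soft, 5 of 7 members (Cav1, Cav2, Cavin3, Ehd2 and Pacsin2) lay within it, beside 28.7% of all genes. This count depended on the length and GC trend: with the trend subtracted, 2 of 7 members lay within the band, beside 32.7% of all genes. The 6 members other than Cavin2 then ranged from -0.16 for Ehd2 to 0.25 for Cav2.

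Differences over the first step of stiffness were small. Between intermediate and soft, 0 of 7 members reached a log2 ratio of 1 in either direction, beside 0.16% of all genes that were higher and 0.00842% that were lower. Within the band of 0.1 lay 6 of 7 members, beside 49.6% of all genes, and the exception was Cavin1 at 0.15. With the trend subtracted 6 members again lay within the band, beside 54.4% of all genes, but Cavin1 was inside it at 0.05 and Ehd2 outside it at -0.14. The median of the members was -0.04, beside 0.012 for all genes. The range ran from -0.06 for Cav2 to 0.15 for Cavin1.

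The second step held the difference in Cavin2. Between stiff and intermediate, 1 of 7 members was higher by a log2 ratio of at least 1, beside 0.825% of all genes, and 0 were lower, beside 0.421%. The median of the members was 0.10, beside 0.0061 for all genes, and 3 of 7 members (Cav1, Ehd2 and Pacsin2) lay within 0.1 of 0, beside 37% of all genes. With scaling by library totals 5 members lay within it, beside 35.6% of all genes. Cavin1 reached 33.3% of its log2 difference between soft and stiff in the intermediate library, or 22.0% with the trend subtracted. Cavin2 had reached none of it there. The comparisons share libraries, so these counts are not independent of each other.

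**Figure D3:**
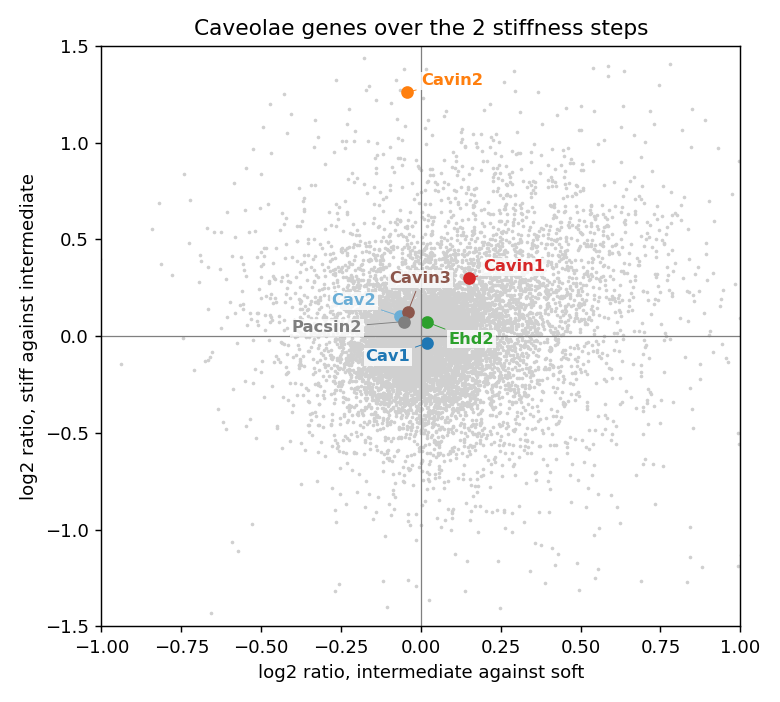
Log2 ratio of intermediate to soft (horizontal) against log2 ratio of stiff to intermediate (vertical) for genes whose mean reached 50 normalized counts (grey) and the 7 caveolae genes (coloured); genes outside the axes are not drawn. Cavin2 sits high on the vertical axis at -0.04 and 1.26, Cavin1 is at 0.15 and 0.30, and the other 5 members lie near the origin.

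Levels of different genes compare only per length, so normalized counts were divided by the length of the canonical transcript in kilobases. On the soft plate the order was Cav1 at 5005 normalized counts per kilobase, Cavin1 at 3743, Ehd2 at 2095, Cav2 at 985, Cavin3 at 698, Pacsin2 at 497 and Cavin2 at 186. Each neighbouring pair in that order was separated by more than counting error. The intermediate library had the same order, with Cav1 at 5073, Cavin1 at 4150.5 and Cavin2 at 180.5. In the stiff library Cavin1 and Cav1 changed places, at 5103 (interval 5028 to 5180) and 4948 (interval 4865 to 5031), with intervals that overlap at their ends. Cavin2 stayed last there but came close to Pacsin2, at 432 against 504. The order rests on the transcript model. With the union of all exons as the length, Cavin1 also stood above Cav1 in the stiff library alone (3346 against 2818 per kilobase), and Cavin2 stood above Pacsin2 there (418 against 197) but below it in the soft and intermediate libraries. With coding length Cav1 stayed above Cavin1 in every library, at 26352 against 15149 in the stiff one, so the change of places was lost. Cavin2 was again above Pacsin2 in the stiff library only, and Cav2 was above Ehd2 in the soft and stiff libraries but not in the intermediate one. The change of places was also lost with the length and GC trend subtracted from the ratios, where Cav1 stayed first in the stiff library (5370.0 against 4435 per kilobase).

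The makeup of the set differed between libraries. Cavin1 took 28.3%, 30.5% and 34.1% of the summed level per kilobase, while Cav1 took 37.9%, 37.2% and 33.1%. With the trend subtracted, an alternative chosen after seeing the data, the stiff library had 30.5% for Cavin1 and 37.0% for Cav1, so most of this shift was lost. Cavin2 was the smallest part in every library, with 1.41%, 1.32% and 2.89%, and 3.21% in the stiff one with the trend subtracted. The sum over the 7 members was 13209, 13626 and 14969 normalized counts per kilobase, a ratio of 1.13 between the extremes. Within the cavins, Cavin1 kept 80.9%, 82.9% and 81.3%, Cavin2 went from 4.02% and 3.60% to 6.89%, and Cavin3 from 15.1% and 13.5% to 11.8%.

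**Figure D4:**
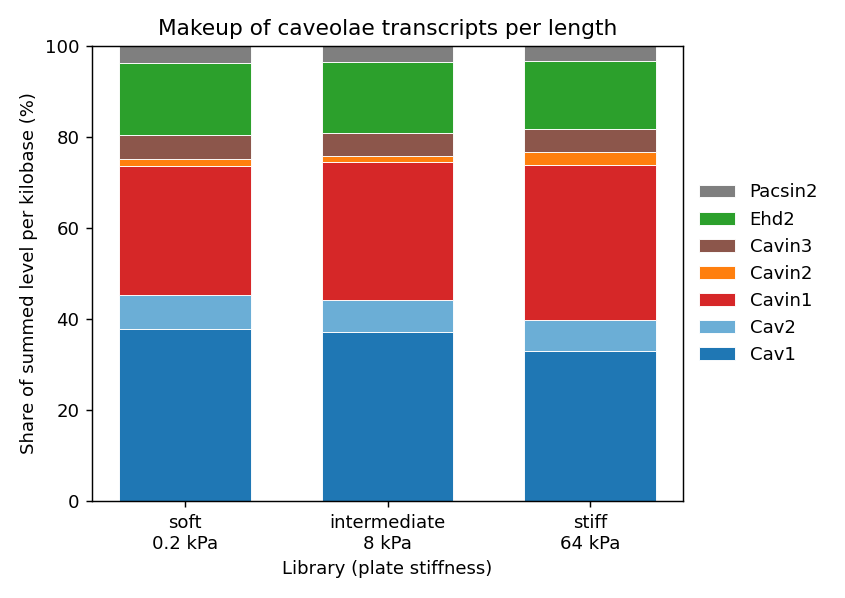
Share of each gene in the summed level per kilobase of canonical transcript of the 7 caveolae genes, as stacked bars that add to 100% in each library. Cavin1 grows from 28.3% to 34.1% and Cavin2 from 1.41% to 2.89% between the soft and the stiff library, and Cav1 goes from 37.9% to 33.1%, as deposited.

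A ratio of 2 genes within a library does not depend on the scaling between libraries, and while its size depends on the lengths used, its change between libraries does not. Cavin1 per Cav1, both per kilobase, was 0.748 (interval 0.730 to 0.766), then 0.818 (interval 0.800 to 0.837) and then 1.03 (interval 1.01 to 1.05) with increasing stiffness. These intervals do not overlap, so as deposited the balance of the 2 essential coat transcripts differed among the 3 libraries beyond counting error. With the length and GC trend subtracted that no longer held at the first step. The log2 difference between the genes was 0.13 as deposited and -0.0030 with the trend subtracted for intermediate against soft, and 0.46 and 0.14 for stiff against soft. Cavin2 per Cav1 was 0.0372, 0.0356 and 0.0874. That log2 difference was 1.23 as deposited and 1.22 with the trend subtracted. Cav2 per Cav1 was 0.197, 0.186 and 0.204, and Ehd2 per Cav1 was 0.419, 0.419 and 0.451. The Ehd2 ratio reversed for stiff against soft, from a log2 difference of 0.11 as deposited to -0.27 with the trend subtracted.

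Markers of other cells that carry caveolae were read beside these results, since in bulk RNA fewer cells of a type and less RNA per cell cannot be told apart. Cavin2 is abundant in endothelium. The 9 endothelial markers summed to 70.7, 89.6 and 96.4 normalized counts, none had a mean of 50, and Cldn5 had no read. Between soft and stiff the markers differed in direction: Kdr, the highest, stood at 21.5, 25.5 and 46.1, with Tek, Tie1 and Vwf also higher in stiff, while Pecam1 stood at 12.3, 12.3 and 4.10, with Cdh5 and Plvap also lower. Their part in the Cavin2 result was not tested. The 5 adipocyte markers summed to 6052, 5880 and 5016, lowest in the stiff library, with Lep at 0 in all. The 6 skeletal muscle markers summed to 91.2, 98.0 and 122, mostly Actn3 at 78.9, 82.0 and 97.4, with Myh4 at 0 in all. The 5 mural markers summed to 2278, 3162 and 2975, mostly Cspg4, while Rgs5 was at 89.2, 57.5 and 84.1.

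Macrophage markers were higher in the stiff library, as Cavin2 was, but also differed at the first step. All 10 were higher in the stiff than in the soft library, 9 of them by a log2 ratio of at least 1, beside 3.22% of all genes, and their sum was 26572, 32988 and 59084. The median of their log2 ratios was 1.26 for stiff against soft. For intermediate against soft all 10 were above 0, beside 6348 of the 11873 genes tested. Their median was 0.46, where Cavin2 stood at -0.04. For stiff against intermediate 9 of 10 were higher by 0.5 or more, beside 644 of the 11873 genes tested. The median of the 10 was 0.84, where Cavin2 stood at 1.26. The part of macrophage RNA in the Cavin2 and Cavin1 results was not tested. The reporter tdTomato was also highest in the stiff library, with a log2 ratio of 1.70 against soft, and its part was not tested either.

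Relatives of the members from the same protein families, and the receptor Ror1, which binds caveolin-1 and cavin-1, formed a list of 8 genes, of which 6 had a mean of at least 50. Of these 6, 1 was higher by 0.5 or more and 2 were lower in stiff against soft, beside 11.8% and 3.77% of all genes. Ehd4, an endosomal paralog of Ehd2, was the highest, with 886, 1051 and 1439 normalized counts and a log2 ratio of 0.70. Cavin4, the muscle cavin, was the lowest, with 229, 222 and 138 and a log2 ratio of -0.72. Ehd3 was at -0.57. Thus Cavin4 and Cavin2 differed in opposite directions between the stiff and the soft library. Ehd1, a recycling endosome protein, was at 0.28 as deposited and -0.07 with the trend subtracted. Cav3, the muscle caveolin, had 18.5 to 29.7 normalized counts and Pacsin1, the neuronal paralog, 1.03 to 1.89, both below the filter. The median of the list was 0.07, and -0.13 with the trend subtracted.

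Genes for the traffic and anchorage of caveolae formed another list. All 11 of its genes passed the filter, and 5 were higher by 0.5 or more in stiff against soft (Abl1, Flna, Cd36, Dnm2 and Src) and 0 were lower, beside 11.8% and 3.77% of all genes. The median was 0.43. Abl1, a kinase that links caveolae to stress fibres, was the highest at 0.87, with 1626, 2176 and 2979 normalized counts. Flna, the actin crosslinker filamin A that binds caveolin-1, was at 0.86. Stx6, a syntaxin of the caveolin-1 route to the surface, was the lowest at -0.07. With the length and GC trend subtracted 1 of the 11 was still at 0.5 or more, beside 7.84% of all genes: Cd36, a fatty acid receptor found in caveolae and also made by macrophages and adipocytes, at 0.97. Flna was then at 0.23, Abl1 at 0.38, and the median of the list was 0.21.

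Clathrin-coated pits, the other main coated pit of the surface, served as a comparison. Of 16 genes of the clathrin coat and its adaptors, 15 had a mean of at least 50, and 2 were higher by 0.5 or more (Itsn1 and Ap2a2) with 0 lower, beside 11.8% and 3.77% of all genes. Itsn1, an endocytic scaffold, was the highest at 0.70 and Epn2, an epsin, the lowest at -0.31. The heavy chain Cltc had 18678, 19913 and 21046 normalized counts, a log2 ratio of 0.17. With the trend subtracted 0 of 15 were higher by 0.5, beside 7.84% of all genes, and Itsn1 was at -0.04. The median of the list was 0.20 as deposited and 0.12 with the trend subtracted, beside 0.08 and 0.10 for the caveolae members. Fcho1, below the filter, had 2.05, 4.71 and 22.6 normalized counts.

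Genes with the most similar pattern were sought among 10622 named genes with a mean of at least 100, by Euclidean distance in the plane of the 2 step ratios, which rest on 3 libraries. The nearest to Cav1 were Tbx4, Ldlrad3, Gna11, Ap1g1 and Vps26a, and 1951 genes lay within 0.1 of it, so a flat pattern was common. Among the nearest to Cavin1 were Dpp9, Tecpr1, Lyar and Slc7a1, with 314 genes within 0.1. For Cavin2, added after its values were seen, only 5 genes lay within 0.1, among them Ccn2, Ncf1, Mfsd6 and Hspa1b. Ccn2, a secreted matricellular factor, was the nearest at a distance of 0.026, with ratios of -0.07 and 1.27 over the 2 steps. Ncf1, a subunit of the phagocyte oxidase, followed at 0.060 with ratios of 0.0078 and 1.23. Distances among the nearest genes of Cav1, Cavin1 and Cavin2 are smaller than the counting error of the members themselves, so the order of these genes is not resolved.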

How the data were processed

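Bulk RNA sequencing was deposited for 3 libraries, 1 per stiffness level. The deposited values are normalized read counts, a signal in which the authors scaled the gene counts of each library by 1 factor, as the names of the deposited files and the values show. The submitters' processing notes name bcl2fastq 2.20.0, STAR 2.7.9a, featureCounts (Subread 2.0.1), DESeq2 1.34.0 and GRCm39. The annotation and the strand setting are not given in the sources used here. The 3 deposited files were identical, with 1 column per library, each named by its title. Dividing each library by its smallest positive value gave whole reads (tolerance 1e-06) in 100% of cases. The value of 1 read was 1.03 (soft), 0.943 (intermediate) and 1.03 (stiff). With 1 library per group no count test was possible.

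Log2 ratios used a pseudocount of 1, which understates changes of low genes. The background was the 11873 genes whose mean reached 50 normalized counts. Intervals are exact 95% Clopper-Pearson intervals, or exact Poisson intervals for levels per kilobase, and they leave out all error but counting, because reads copied by PCR are not separate molecules. Gene loci, lengths and GC contents are from GENCODE vM39 on GRCm39, matched by symbol or Ensembl identifier (11699 of the 11873). The trend was fitted locally and robustly, with a straight plane through the 300 genes closest in log2 transcript length and GC share. Genes overlapping the members on the opposite strand had at most 10 reads where they were in the table, and a pseudogene within Pacsin2 on the same strand had at most 18. The members and lists were chosen with earlier results of these data known. Named genes were the 7 members, the highest and lowest gene of each list, genes at or near 0, the flanking genes, and the 5 genes nearest in pattern to Cav1 and to Cavin1. Some of the genes nearest in pattern are not reported here. Other names were added after their values were seen. The counting step, the intervals and the local fit were tested on simulated data. Ratios and intervals were computed with scipy 1.17.1, numpy 2.4.6 and pandas 2.3.3 in Python 3.11.15, and plots were drawn with matplotlib 3.10.9.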

Additional observations from a re-analysis of the deposited data

How the results depend on the processing

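With 1 library per stiffness level no library could be left out. No paired analysis was possible because there is a single library in each group. Under pseudocounts of 0.1 and 10, scaling by library totals or upper quartiles, centring on the median gene, subtraction of the length and GC trend, minimum means of 10 and 200, no filter, and a threshold of 0.5, the number of members past the threshold stayed at 1 between stiff and soft, at 0 between intermediate and soft and at 1 between stiff and intermediate. The medians of the members ranged from 0.03 to 0.10, -0.08 to -0.03 and 0.07 to 0.10 in these 3 comparisons, over the alternatives that change a ratio. Of 42 alternative values of single members per comparison, 11, 5 and 6 left the counting interval. Cavin2 ranged from 1.16 to 1.32 for stiff against soft and from 1.22 to 1.35 for stiff against intermediate. Cavin1 ranged from 0.24 to 0.45 for stiff against soft, where the lowest value is that with the trend subtracted. The signs of Cav1, Cav2, Ehd2 and Pacsin2 for stiff against soft each turned under at least 1 alternative, with ranges of -0.07 to 0.10, -0.02 to 0.25, -0.16 to 0.09 and -0.04 to 0.02. Scaling by library totals shifted the median of all genes by -0.06 between stiff and soft, the furthest of the scalings tried. With coding length in place of transcript length, 3 of the 7 members kept their rank by the mean level over the libraries. In that mean Cav2 stood above Ehd2 and Cavin2 above Pacsin2, which did not hold in each library. Depth did not limit the members, which had at least 1210 reads in each library, but the variation between cultures is unknown.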

Other observations

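The genes beside the members on the chromosome were read as values, each the closest protein-coding gene that reached a mean of 50. Cavin2 lies between Tmeff2, at 755, 766 and 880 normalized counts, and Nabp1, at 958, 967 and 1336. Their log2 ratios for stiff against soft were 0.22 and 0.48, below the 1.22 of Cavin2, and both had little of the difference in the intermediate library, at 0.02 and 0.015. Beside Cavin1, Atp6v0a1 was at 0.53 and Stat3 at 0.19. The genes flanking the caveolin pair were Tes at -0.05 and Met at 0.34. Beside Ehd2, which was at 0.09, Bicra lies 2967 bases away and had 164, 249 and 381 normalized counts, a log2 ratio of 1.21, while Nop53, 835 bases away on the other side, was at 0.07. Beside Cavin3 the ratios were 0.11 for Fhip1b and 0.17 for Smpd1, and beside Pacsin2 they were -0.18 for Arfgap3 and 0.27 for Ttll1.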
